A study of Mus musculus with 9 samples.

Results

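The comparison described here is that of enpatoran with saline in mouse hearts after ischemia-reperfusion (I/R), over the whole heart. It covers 6 of the 9 libraries of the study, the 3 labelled Enpa-I/R and the 3 labelled NS-I/R, which were chosen by their treatment and surgery labels. All mice were wild-type males aged 9 to 10 weeks. NS-I/R mice received 2 intraperitoneal injections of normal saline and Enpa-I/R mice 2 of enpatoran at 5 mg/kg each, the first 1 h before ischemia. The series text puts the second injection 2 h after the first, while the treatment protocol puts it directly after ischemia. Ischemia was 45 min of blocked flow in the left anterior descending coronary artery (LAD), followed by 24 h of reperfusion. The other 3 libraries, NS-Sham, came from saline-treated mice with a thoracotomy but no occlusion, and their values are given beside the results. They also entered the fit from which the spread between libraries was estimated. No sham-operated mice given enpatoran were analysed here, and nothing in the labels says whether the injured area was sampled alike in each heart.

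TLR7 is an endosomal receptor that recognises single-stranded RNA, and enpatoran is a small-molecule antagonist of it. Once engaged, TLR7 signals through the adaptor MyD88 and IRAK kinases to NF-kB and interferon regulatory factors, which switch on cytokine, chemokine and interferon-response genes. After a coronary occlusion, RNA released from dying cells is a known trigger of such receptors, and neutrophils and then monocytes enter the tissue. Surviving cardiomyocytes lower genes of contraction, conduction and fatty acid use and raise stress genes. Itgam, which the title of the study names with TLR7, encodes the alpha chain of the leukocyte integrin Mac-1, with which neutrophils and monocytes hold on to endothelium.

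Nuclei were isolated from flash-frozen, powdered hearts and sequenced in droplets (single-nucleus RNA sequencing), so that nuclear RNA was counted as unique molecular identifiers (UMIs). Barcodes with at least 500 genes and at most 5% mitochondrial UMIs were kept, which left 30474 of 38633 barcodes in the 6 libraries, and their UMIs were summed per library. Kept nuclei numbered 5075, 5452 and 5786 in NS-I/R replicates 1 to 3, against 5945, 3274 and 4942 in Enpa-I/R, and summed depth lay between 18254467 and 29779746 UMIs in the 6 libraries. Values are CPM, UMI counts per 1000000 UMIs of the library, scaled with TMM factors, always listed in the order of replicates 1 to 3. The labels number 3 replicates a group without saying whether each is a separate animal, so p-values measure the spread between these libraries, which may be technical. Log2 fold changes are Enpa-I/R over NS-I/R (n = 3 and 3) with their standard error. All 9 libraries entered 1 edgeR fit, so the NS-Sham libraries share in the spread behind standard errors and p-values. A gene was called where edgeR's quasi-likelihood test gave a Benjamini-Hochberg adjusted p under 0.05 over 18260 tested genes.

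The library NS-I/R 3 stood apart from its group. Across tested genes its log2 CPM correlated at 0.970 with NS-I/R 1 and 0.969 with NS-I/R 2, but at 0.982 to 0.988 with the 3 Enpa-I/R libraries, while NS-I/R 1 and NS-I/R 2 correlated at 0.991 with each other. These correlations are across genes, which are not independent replicates. On the first principal component NS-I/R 1 and 2 scored 72.3 and 69.2, NS-I/R 3 scored 33.2, the Enpa-I/R libraries lay between -0.33 and 3.98, and the NS-Sham libraries lay between -61.6 and -57.5. Results are therefore given with and without NS-I/R 3. Because this library was singled out by its values, leaving it out tends to widen the group difference and narrow the spread within NS-I/R. Counts and p-values without NS-I/R 3 are thus a description and no independent support. The cause of its position was not tested.

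**Figure D1:**
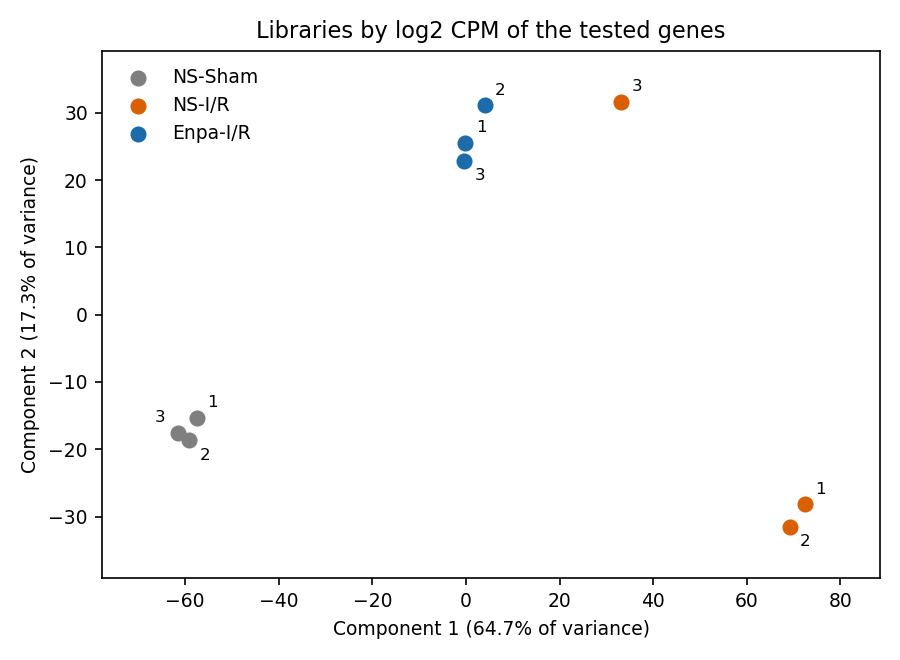
The 9 libraries are placed by the first and second principal component of log2 CPM (0.5 CPM added) over tested genes, with the share of variance on each axis, and numbers are replicates. The library NS-I/R 3 lies near the Enpa-I/R libraries on the vertical axis (31.6 against 22.9 to 31.1) and between them and the other NS-I/R libraries on the horizontal axis.

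Sums of cell type markers are given first, as values beside which the gene results stand, and none passed the test after adjustment. The summed level of 8 cardiomyocyte markers, in CPM of all UMIs, was 21073, 22043 and 23189 for NS-I/R against 32140.0, 29009 and 30395 for Enpa-I/R, without overlap, beside 32782, 35361 and 36259 for NS-Sham. Its members did not move alike: Ttn and Ryr2 made up most of the sum, Tnnt2, Mybpc3 and Ttn were called higher, and Myh6 (-0.01 ± 0.13 on the log2 scale), Myom1 (-0.11 ± 0.23) and Ldb3 (0.11 ± 0.18) were not. For 9 neutrophil markers the sum was 336, 226 and 689 CPM in NS-I/R and 125, 247 and 107 CPM in Enpa-I/R, beside 8.29, 6 and 4.63 CPM in NS-Sham. The second Enpa-I/R library overlapped with the second NS-I/R library, and the other Enpa-I/R libraries were below all of NS-I/R. The 5 markers of infiltrating monocytes summed to 318, 266 and 387 CPM and 186, 245 and 183 CPM, without overlap, and 8 macrophage markers to 708, 501 and 739 CPM and 467, 846 and 467 CPM, with overlap. Most of the monocyte sum was Vcan, at 250.6, 214 and 205 CPM in NS-I/R and 155, 171 and 165 CPM in Enpa-I/R. It alone of the 5 was called, and lower, while Ccr2 and Plac8 had positive fold changes. An exact two-sided permutation test, whose smallest p with 3 against 3 is 0.1, gave 0.1 for cardiomyocytes and infiltrating monocytes, 0.2 for neutrophils and 0.8 for macrophages (adjusted p = 0.49, 0.49, 0.49 and 0.93 over 22 measures). In sums over the whole heart, fewer cells of a type and less RNA per cell cannot be told apart. The part of cell makeup in the results below was not tested. A fit without leukocyte barcodes is given beside some results as a description. That fit leaves out barcodes with at least 3 UMIs over 10 leukocyte genes, which were 22, 19.6 and 27% of nuclei in NS-I/R, against 13.6, 20.9 and 12% in Enpa-I/R. It cannot separate cell makeup, because leukocyte nuclei with fewer such UMIs stay in. The 10 genes can also move with the group, as Coro1a did (log2 fold change -1.13 ± 0.16, called lower). Mitochondrial UMIs made up 0.85% to 1.01% of the kept UMIs in the 6 libraries, after barcodes over the 5% limit had been removed. The share of all barcodes over that limit ranged from 13.9% to 17.8% with enpatoran. With saline after I/R this share was lower, at 11.8% to 13.5%, without overlap between the groups. The cause of this difference was not tested.

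With all libraries, 3056 of 18260 genes (16.7%) were called, of which 1408 (7.71% of tested genes) were higher in Enpa-I/R and 1648 (9.03%) lower. Among the called genes, 2890 did not overlap in CPM between the 2 groups, and 6094 of all tested genes (33.4%) did not overlap. The count depended strongly on which libraries entered. Without NS-I/R 3 it was 8247 of 18663 (44.2%), 4217 higher (22.6%) and 4030 lower (21.6%). List counts given below for that fit stand beside these larger shares. Leaving out NS-I/R 1 or NS-I/R 2 gave 463 and 789 called genes, and leaving out Enpa-I/R 1, 2 or 3 gave 265, 1323 and 288 (2.49%, 4.28%, 1.42%, 6.99% and 1.52% of tested genes). Leaving out NS-Sham 1, 2 or 3 gave 1981, 2169 and 1926 (10.5%, 11.6% and 10.2%). A fit of the 6 I/R libraries alone called 689 genes (3.87%), with 1.58% higher and 2.28% lower, of which 670 were among the 3056. List counts given below for this 6-library fit stand beside these smaller shares. The call held in every fit that left out 1 of the 9 libraries for 205 genes (1.12% of those tested), 98 higher and 107 lower, and these are called lasting calls below.

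**Figure D2:**
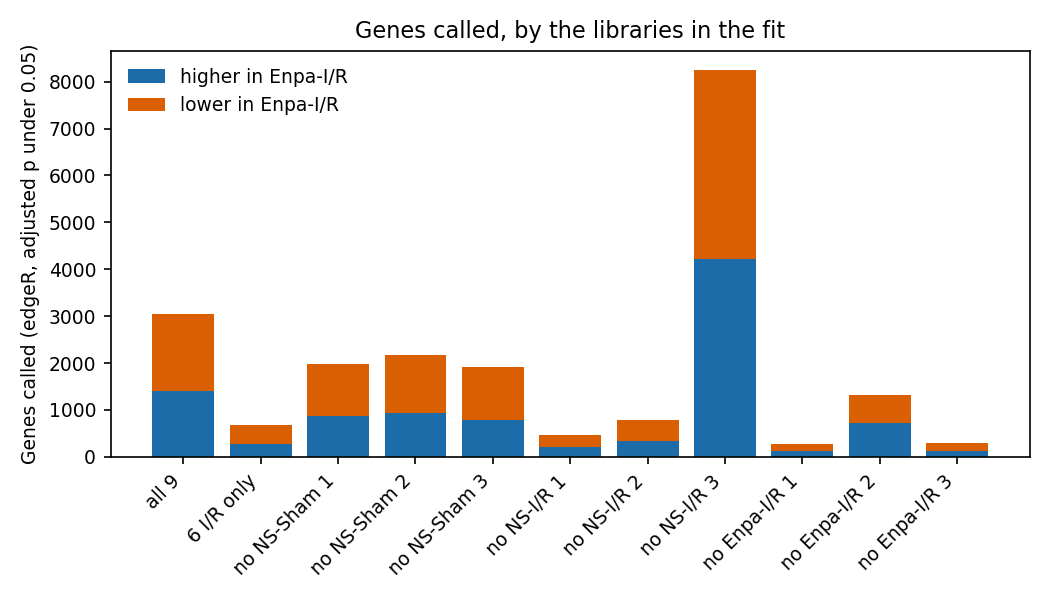
Bars give the number of genes called higher (lower segment) and lower (upper segment) in Enpa-I/R by edgeR, with all 9 libraries, with the 6 I/R libraries, and with each library left out. The count runs from 265 without Enpa-I/R 1 to 8247 without NS-I/R 3, against 3056 with all 9.

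Heat-shock, cytokine and neutrophil genes were among the 8 largest decreases, taken over called genes that averaged 10 CPM or more and did not overlap between groups. Hspa1b and Hspa1a, which encode the inducible HSP70 chaperone, fell furthest. Hspa1b measured 191, 74.8 and 89.6 CPM in NS-I/R and 2.77, 6.87 and 2.26 CPM in Enpa-I/R, beside 1.34, 1.4 and 1.18 CPM in NS-Sham (log2 fold change -4.92 ± 0.47, adjusted p = 0.0025). Every Enpa-I/R library was below every NS-I/R library, and the fold change was -5.09 without NS-I/R 3 and -4.76 without leukocyte barcodes. Hspa1a gave 231, 86.5 and 95.9 CPM in NS-I/R and 3.39, 11.1 and 2.16 CPM in Enpa-I/R (log2 fold change -4.66 ± 0.60, adjusted p = 0.0048), and its promoter in the RefSeq table is identical to that of Hspa1b at 296 of 300 positions. Because the genes are near-identical copies, reads could be split between them or lost, so the division of counts between them is uncertain. Il18rap, a subunit of the interleukin-18 receptor, measured 170.1, 130.1 and 42.2 CPM in NS-I/R and 8.34, 11.5 and 5.28 CPM in Enpa-I/R (log2 fold change -3.77 ± 0.47, adjusted p = 0.0041), and its lowest NS-I/R value was that of replicate 3. Without leukocyte barcodes its fold change was -4.80. Retnlg, a resistin-like gene of neutrophils, measured 41.5, 26.2 and 22.4 CPM in NS-I/R and 2.73, 3.65 and 2.11 CPM in Enpa-I/R (log2 fold change -3.41 ± 0.27, adjusted p = 0.00078), and its 3 Enpa-I/R values lay far under the lowest NS-I/R value. These 4 genes were lasting calls. Pabpc1l, which encodes a poly(A)-binding protein, was 34.5, 36.4 and 5.12 CPM in NS-I/R and 2.6, 2.06 and 2.56 CPM in Enpa-I/R (log2 fold change -3.39 ± 0.59, adjusted p = 0.011), so that 5.12 CPM in NS-I/R 3 stood close to Enpa-I/R. The Pabpc1l call was lost without Enpa-I/R 1 or Enpa-I/R 3 (adjusted p up to 0.055). C7, a component of the complement membrane attack complex, was 353, 284 and 71 CPM in NS-I/R and 39.1, 41.1 and 22.1 CPM in Enpa-I/R (log2 fold change -2.79 ± 0.53, adjusted p = 0.014), again with NS-I/R 3 lowest in its group. The C7 call was lost without Enpa-I/R 1 or Enpa-I/R 3 (adjusted p up to 0.061). Il6 and Cxcl2 complete the 8 and are described with their families.

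The 8 largest increases, chosen in the same way, included the sarcomere gene Myh7b and the coactivator gene Ppargc1a. Hs3st5, which encodes a heparan sulfate sulfotransferase, measured 621, 759.7 and 644 CPM in NS-Sham, 19.9, 23.8 and 47.7 CPM in NS-I/R and 184, 165 and 196 CPM in Enpa-I/R. For Hs3st5 the change was 2.58 ± 0.28 on the log2 scale (adjusted p = 0.0035) and 3.07 without NS-I/R 3. The Enpa-I/R values were all above NS-I/R and all below NS-Sham. Myh7b, a slow-type myosin heavy chain gene, measured 258, 298 and 316 CPM in NS-Sham, 11.4, 5.84 and 17.4 CPM in NS-I/R and 51.6, 34.4 and 67.4 CPM in Enpa-I/R. The order of groups was the same. For Myh7b the change was 2.15 ± 0.35 on the log2 scale (adjusted p = 0.0095). Ctnnal1, which encodes an alpha-catenin-like protein, was 43.8, 39.1 and 35.7 CPM in NS-Sham, 22, 23.3 and 44.5 CPM in NS-I/R and 139.9, 75.2 and 136 CPM in Enpa-I/R. Here Enpa-I/R lay above NS-Sham as well. For Ctnnal1 the change was 1.96 ± 0.30 on the log2 scale (adjusted p = 0.0084). Ppargc1a, the coactivator PGC-1alpha that drives mitochondrial genes, was 568, 583 and 455 CPM in NS-Sham, 353, 312 and 427 CPM in NS-I/R and 1726, 457 and 2339 CPM in Enpa-I/R. For Ppargc1a the change was 2.05 ± 0.45 on the log2 scale (adjusted p = 0.019). Its Enpa-I/R values spread widely, with replicate 2 just above NS-I/R 3. The Ppargc1a call was lost without NS-I/R 1, NS-I/R 2, Enpa-I/R 1 or Enpa-I/R 3 (adjusted p up to 0.074). Hist1h2be, a histone gene of a family of near-identical copies, was 2.09, 1.69 and 7.99 CPM in NS-I/R and 19, 20.9 and 19 CPM in Enpa-I/R (log2 fold change 2.32 ± 0.46, adjusted p = 0.015), 3.39 without NS-I/R 3. The Hist1h2be call was lost without NS-I/R 1, Enpa-I/R 1 or Enpa-I/R 3 (adjusted p up to 0.058). Rap1gap, a GTPase-activating protein of Rap1, had a log2 fold change of 1.98 ± 0.45 (2.90 without NS-I/R 3). The Rap1gap call was lost without NS-I/R 1, NS-I/R 2, Enpa-I/R 1 or Enpa-I/R 3 (adjusted p up to 0.081). Ppm1e, a protein phosphatase, was 27.7, 33.3 and 155 CPM in NS-I/R and 274, 230.0 and 319.9 CPM in Enpa-I/R (log2 fold change 1.93 ± 0.54, 3.18 without NS-I/R 3). The Ppm1e call was lost when any 1 library other than NS-I/R 3 was left out (adjusted p up to 0.11). Hectd2os, a transcript on the strand opposite Hectd2, had 1.95 ± 0.46 (2.90 without NS-I/R 3). The Hectd2os call was lost without NS-I/R 1, NS-I/R 2, Enpa-I/R 1 or Enpa-I/R 3 (adjusted p up to 0.082); whether counting used strand is not given in the sources used here. Of these 8 genes, Hs3st5, Myh7b and Ctnnal1 were lasting calls.

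At the level of the receptors, Tlr7 itself did not pass the test. Tlr7 (ENSMUSG00000044583) measured 8.82, 10.9 and 5.54 CPM in NS-Sham, 9.62, 8.02 and 7.49 CPM in NS-I/R and 7.44, 11 and 7.29 CPM in Enpa-I/R. The 3 groups overlapped. For Tlr7 the change was 0.03 ± 0.25 on the log2 scale (adjusted p = 0.94). Its fold change ran from -0.17 to 0.15 when single libraries were left out, and was -1.11 without leukocyte barcodes (adjusted p = 0.057). An antagonist acts on the receptor protein, so that its RNA is no measure of drug action. Tlr2, which senses bacterial lipoproteins, measured 10.4, 5.69 and 5.39 CPM in NS-I/R and 1.9, 3.01 and 2.92 CPM in Enpa-I/R (log2 fold change -1.46 ± 0.29, adjusted p = 0.015). The Tlr2 call was lost without NS-I/R 1, Enpa-I/R 1 or Enpa-I/R 3 (adjusted p up to 0.068). Cd14, a co-receptor of TLR4 and TLR2, measured 15.8, 9.4 and 11.4 CPM in NS-I/R and 4.57, 6.76 and 4.62 CPM in Enpa-I/R (log2 fold change -1.20 ± 0.23, adjusted p = 0.013), also with no overlap. The Cd14 call was lost without NS-I/R 1, Enpa-I/R 1 or Enpa-I/R 3 (adjusted p up to 0.063). Tlr5 rose from a low level, with 0.827, 1.05 and 2.29 CPM in NS-I/R and 3.08, 4.12 and 4.12 CPM in Enpa-I/R (log2 fold change 1.43 ± 0.36, adjusted p = 0.027). The Tlr5 call was lost when any 1 I/R library other than NS-I/R 3 was left out (adjusted p up to 0.094). Tlr4 (450.1, 426 and 337 CPM in NS-I/R and 367, 302 and 374 CPM in Enpa-I/R; log2 fold change -0.22 ± 0.13, adjusted p = 0.24) and Unc93b1, which escorts TLR7 to endosomes (19.9, 19.1 and 27.1 CPM in NS-I/R and 25.9, 36.3 and 25.2 CPM in Enpa-I/R; log2 fold change 0.40 ± 0.19, adjusted p = 0.16), did not pass the test. Of 11 tested receptors and co-receptors, 1 was called higher and 2 lower, beside 7.71% and 9.03% of all tested genes, with a median log2 fold change of -0.02 beside 0.01 over all tested genes. Without NS-I/R 3 the counts were 3 and 3, beside 22.6% and 21.6% of all genes tested there, and the number of calls was 0 without NS-I/R 1, Enpa-I/R 1 or Enpa-I/R 3. Without leukocyte barcodes 7 were tested (median -1.08), of which 0 were called higher and 3 lower, beside 7.51% and 10.2% of all genes. Among leukocyte barcodes alone 11 were tested, of which 3 were called higher and 2 lower, and the median was positive (0.48). In either direction 8.99% of all genes were called there.

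Downstream, a part of the signalling genes and of the NF-kB feedback genes was called lower with enpatoran. Of 17 Toll adaptors and kinases, 0 were called higher and 4 lower, beside 7.71% and 9.03% of all tested genes (median -0.24, and -0.27 without NS-I/R 3). Irak1, a kinase of the MyD88 complex, measured 97.4, 98.5 and 70.6 CPM in NS-I/R and 60.6, 52.8 and 63.3 CPM in Enpa-I/R (log2 fold change -0.59 ± 0.14, adjusted p = 0.022), without overlap. Irak3, a kinase-dead brake on that complex, measured 132, 120.4 and 62.2 CPM in NS-I/R and 56.3, 57.4 and 55.3 CPM in Enpa-I/R (log2 fold change -0.90 ± 0.23, adjusted p = 0.028), and the NS-I/R value nearest to Enpa-I/R was that of replicate 3. Tirap, an adaptor of TLR2 and TLR4, had -0.57 ± 0.14 on the log2 scale and Traf3, an adaptor of the interferon arm, -0.30 ± 0.08. Each of these 4 calls was lost when NS-I/R 1, NS-I/R 2 or any Enpa-I/R library was left out (adjusted p up to 0.11); that of Traf3 was also lost without NS-Sham 1 or NS-Sham 3. Without NS-I/R 3, 2 members were called higher and 9 lower, beside 22.6% and 21.6% of all genes tested there. The 6-library fit called 0 higher and 1 lower, beside 1.58% and 2.28%.

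Of 17 NF-kB subunits and feedback genes, 0 were called higher and 6 lower, where 9.03% of all tested genes were called lower, with a median of -0.52. Without NS-I/R 3 they were 0 and 12, where 21.6% of all genes were called lower, with a median of -0.64. They were 0 and 1 in the 6-library fit, where 2.28% of all genes were called lower. Zc3h12a encodes regnase-1, an RNase that degrades cytokine messenger RNAs. It measured 33.9, 29.6 and 22.7 CPM in NS-I/R and 14.2, 16.2 and 14.7 CPM in Enpa-I/R, beside 8.65, 9.1 and 8.87 CPM in NS-Sham (log2 fold change -0.93 ± 0.15, adjusted p = 0.0091), and was a lasting call with fold changes of -1.07 to -0.80 across the left-out libraries. Nfkbiz, a nuclear NF-kB cofactor, measured 130.3, 92.7 and 82.7 CPM in NS-I/R and 58.6, 65.4 and 59.6 CPM in Enpa-I/R (log2 fold change -0.74 ± 0.15, adjusted p = 0.017). The Nfkbiz call was lost without Enpa-I/R 1 or Enpa-I/R 3 (adjusted p up to 0.073). Tnfaip3, the feedback enzyme A20, measured 17, 12.5 and 9.08 CPM in NS-I/R and 6.33, 6.29 and 6.89 CPM in Enpa-I/R (log2 fold change -0.98 ± 0.22, adjusted p = 0.020). The Tnfaip3 call was lost when any 1 I/R library other than NS-I/R 3 was left out (adjusted p up to 0.079) and without leukocyte barcodes (adjusted p = 0.15). Relb, a subunit of the noncanonical arm, fell by less, with 52.9, 49.3 and 37.8 CPM in NS-I/R and 32.4, 28.6 and 36.3 CPM in Enpa-I/R (log2 fold change -0.52 ± 0.14, adjusted p = 0.034). The Relb call was lost when any 1 library other than NS-I/R 3 was left out (adjusted p up to 0.13). In all 4 genes every Enpa-I/R library was below every NS-I/R library. The subunit gene Nfkb1 did not pass the test (309, 284 and 258 CPM in NS-I/R and 263, 245 and 279.5 CPM in Enpa-I/R; log2 fold change -0.11 ± 0.10, adjusted p = 0.42). With single libraries left out, calls numbered 1 without Enpa-I/R 1 or Enpa-I/R 3, 2 without NS-I/R 1, NS-I/R 2 or Enpa-I/R 2 and 3 without NS-Sham 1. In the fit without leukocyte barcodes 0 were called higher and 4 lower, where 7.51% and 10.2% of all genes tested were.

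Of 14 inflammatory cytokine genes tested, 0 were called higher and 9 lower with enpatoran, beside 7.71% and 9.03% of all tested genes. Their median log2 fold change was -1.49. The counts without NS-I/R 3 were 0 and 11 (median -1.70), beside 22.6% and 21.6% of all genes. In the fit without leukocyte barcodes they were 0 and 7 of 11 tested (median -1.65), beside 7.51% and 10.2%. The 6-library fit gave 0 and 3, beside 1.58% and 2.28%. Il6, a main inducer of the acute-phase response, measured 0.406, 0.0303 and 0.139 CPM in NS-Sham, 80.8, 39.1 and 12.5 CPM in NS-I/R and 2.98, 3.54 and 5.88 CPM in Enpa-I/R. For Il6 the change was -3.43 ± 0.61 on the log2 scale (adjusted p = 0.012). The NS-I/R values spanned several fold, replicate 3 being lowest, and Enpa-I/R lay below all of them. Without NS-I/R 3 the fold change was -3.87, and the call was lost without Enpa-I/R 1 (adjusted p = 0.060). Lif, a cytokine of the same family, measured 7.62, 5.09 and 2.37 CPM in NS-I/R and 1.11, 1.11 and 1.16 CPM in Enpa-I/R (log2 fold change -2.15 ± 0.38, adjusted p = 0.011), with tightly grouped Enpa-I/R values. The Lif call was lost without Enpa-I/R 1 or Enpa-I/R 3 (adjusted p up to 0.057). Csf1, the growth factor of macrophages, measured 122, 129 and 121 CPM in NS-I/R and 66.8, 75.7 and 55.3 CPM in Enpa-I/R (log2 fold change -0.91 ± 0.17, adjusted p = 0.013), where NS-I/R 3 lay with its group. The Csf1 call was lost without Enpa-I/R 1 or Enpa-I/R 3 (adjusted p up to 0.060). Csf2, which encodes GM-CSF, was at 7.14, 6.22 and 0.66 CPM in NS-I/R and 0.173, 0.264 and 0.503 CPM in Enpa-I/R (log2 fold change -3.92 ± 0.88, adjusted p = 0.026), so that NS-I/R 3 stood near Enpa-I/R. The Csf2 call was lost when any 1 I/R library other than NS-I/R 3 was left out (adjusted p up to 0.099). Il33 (log2 fold change -0.32 ± 0.15, adjusted p = 0.16) and Il18 (log2 fold change 0.53 ± 0.29, adjusted p = 0.21) did not pass the test. None of the 9 calls was lasting, and the number called was 0 without Enpa-I/R 1, 1 without Enpa-I/R 3, 3 without NS-I/R 1, 4 without Enpa-I/R 2 and 5 without NS-I/R 2.

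Among the receptors of these cytokines and their STAT3 arm, 1 of 15 tested genes was called higher and 8 lower (median -0.60). Over all tested genes these shares were 7.71% and 9.03%. The counts were the same without NS-I/R 3, beside larger shares of all genes there (22.6% and 21.6%). In the 6-library fit they were 1 and 2, beside 1.58% and 2.28%. Socs3, a feedback inhibitor switched on by STAT3, measured 1.51, 2.49 and 3.26 CPM in NS-Sham, 60.4, 53.5 and 33.6 CPM in NS-I/R and 19.6, 16.6 and 12.7 CPM in Enpa-I/R. For Socs3 the change was -1.59 ± 0.26 on the log2 scale (adjusted p = 0.010). It was lower in every Enpa-I/R library. The Socs3 call was lost without Enpa-I/R 3 (adjusted p = 0.051). Il4ra, the interleukin-4 receptor alpha chain, measured 105, 93.8 and 113 CPM in NS-I/R and 57.8, 67.7 and 49.8 CPM in Enpa-I/R (log2 fold change -0.83 ± 0.13, adjusted p = 0.0091) and was a lasting call. Il1r2, a decoy receptor for interleukin-1 that neutrophils carry, measured 76.7, 50.9 and 125 CPM in NS-I/R and 22.2, 41.5 and 17.5 CPM in Enpa-I/R (log2 fold change -1.64 ± 0.35, adjusted p = 0.019). It was highest in NS-I/R 3, as was the sum of the neutrophil markers, of which Il1r2 is itself a member. The fold change of Il1r2 was -1.23 without NS-I/R 3. The Il1r2 call was lost without NS-I/R 1, Enpa-I/R 1 or Enpa-I/R 3 (adjusted p up to 0.079). Il1rap, the shared chain of interleukin-1 receptors, measured 65.7, 47.3 and 60.8 CPM in NS-I/R and 37.5, 41.7 and 35.7 CPM in Enpa-I/R (log2 fold change -0.60 ± 0.14, adjusted p = 0.022). The Il1rap call was lost without NS-I/R 1, Enpa-I/R 1 or Enpa-I/R 3 (adjusted p up to 0.088) and without leukocyte barcodes (adjusted p = 0.14). Lifr, the receptor of LIF, rose, with 81.8, 70.1 and 85.6 CPM in NS-I/R and 121, 121 and 130.2 CPM in Enpa-I/R (log2 fold change 0.65 ± 0.13, adjusted p = 0.016), no overlap. The Lifr call was lost without NS-I/R 1, NS-I/R 2, Enpa-I/R 1 or Enpa-I/R 3 (adjusted p up to 0.064). Stat3 (log2 fold change -0.10 ± 0.21, adjusted p = 0.77) and the shared receptor chain Il6st (log2 fold change -0.16 ± 0.09, adjusted p = 0.22) did not pass the test. The number of calls was 1 without Enpa-I/R 3, 2 without NS-I/R 1 or Enpa-I/R 1 and 4 without NS-I/R 2.

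Of 8 tested genes for neutrophil chemokines and their receptors, 0 were called higher and 6 lower with enpatoran (median -1.78). Over all tested genes these shares were 7.71% and 9.03%, and 3 of the 6 were lasting calls. The counts were the same without NS-I/R 3 (median -1.89), beside 22.6% and 21.6% of all genes. They were also the same without leukocyte barcodes, where 7 were tested (median -1.69), beside 7.51% and 10.2%. The 6-library fit called 0 higher and 5 lower, where 1.58% and 2.28% of all genes tested were called. Cxcl1 measured 3.6, 2.55 and 2.98 CPM in NS-Sham, 119.7, 71.9 and 38.8 CPM in NS-I/R and 17.1, 16.4 and 15.3 CPM in Enpa-I/R. For Cxcl1 the change was -2.24 ± 0.33 on the log2 scale (adjusted p = 0.0080). Its Enpa-I/R values were tight and all lay below NS-I/R 3, the lowest of its group. Cxcl5 measured 101, 89 and 61 CPM in NS-I/R and 25.2, 26.1 and 27.9 CPM in Enpa-I/R (log2 fold change -1.66 ± 0.19, adjusted p = 0.0036, -1.84 without NS-I/R 3). Cxcl3 measured 48.5, 26.9 and 22.3 CPM in NS-I/R and 5.75, 5.23 and 10.2 CPM in Enpa-I/R (log2 fold change -2.21 ± 0.33, adjusted p = 0.0084), and in both genes Enpa-I/R lay apart from NS-I/R and above NS-Sham, where no library reached 1 CPM. Cxcl1, Cxcl3 and Cxcl5 were lasting calls. Cxcl2 measured 168, 81.6 and 30.2 CPM in NS-I/R and 10.3, 9.99 and 17 CPM in Enpa-I/R (log2 fold change -2.91 ± 0.52, adjusted p = 0.012), with a large spread within NS-I/R. Its fold change was -4.07 without leukocyte barcodes. The Cxcl2 call was lost without Enpa-I/R 1 (adjusted p = 0.060). Ccl4 (log2 fold change -0.87 ± 0.40, adjusted p = 0.15) and Ppbp (log2 fold change 0.01 ± 0.40, adjusted p = 0.99) did not pass the test. Single left-out libraries lowered the count to 3 without Enpa-I/R 1.

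The proximal promoters of Cxcl1, Cxcl2 and Il6 are printed because these genes fell together and are known targets of NF-kB. Each line gives the 150 bases before the RefSeq start (GRCm38.p6, plus strand), 5′ to 3′, at chr5:90891095-90891244, chr5:90903749-90903898 and chr5:30012964-30013113, and capitals mark every match on either strand to the kB motif (GGG, any 5 bases, then CC), with overlapping matches joined.
Cxcl1: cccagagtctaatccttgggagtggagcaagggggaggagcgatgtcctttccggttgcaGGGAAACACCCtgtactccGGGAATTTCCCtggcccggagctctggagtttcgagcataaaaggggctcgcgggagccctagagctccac
Cxcl2: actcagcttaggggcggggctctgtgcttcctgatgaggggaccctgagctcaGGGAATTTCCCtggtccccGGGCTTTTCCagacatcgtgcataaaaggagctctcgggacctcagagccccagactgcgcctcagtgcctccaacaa
Il6: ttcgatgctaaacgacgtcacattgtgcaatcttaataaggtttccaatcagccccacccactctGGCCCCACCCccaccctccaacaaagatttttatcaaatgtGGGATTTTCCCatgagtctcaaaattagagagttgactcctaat
The stretch GGGAATTTCCC lies in both chemokine promoters, ending 61 bases before the start in Cxcl1 and 87 bases before it in Cxcl2, and the Il6 promoter holds GGGATTTTCCC ending 34 bases before the start. The motif is common: in windows of 250 bases before to 50 after the start it occurred in 68.2% of the 13200 tested genes with a promoter in the table, in 5 of 7 neutrophil chemokine genes, in 8 of 12 cytokine genes and in 12 of 14 NF-kB genes. These are matches of letters, and binding was not measured.

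**Figure D3:**
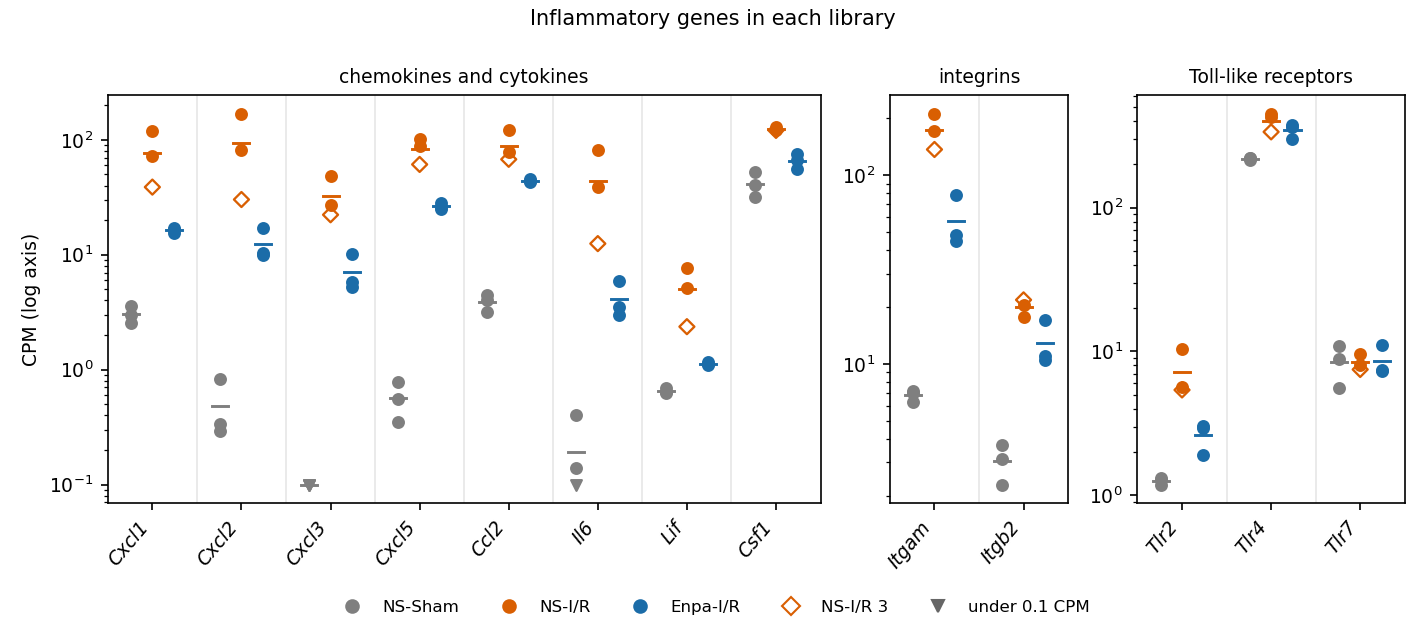
Each point is the CPM of 1 library on a log axis, by group, short lines are group means, the open diamond is NS-I/R 3 and triangles stand for values under 0.1 CPM. Cxcl1, Cxcl3, Cxcl5 and Itgam in Enpa-I/R lie below every NS-I/R library and above NS-Sham, while the values of Tlr7 overlap.

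Of 16 tested genes for monocyte traffic, 1 was called higher and 2 lower (median 0.03), beside 7.71% and 9.03% of all tested genes. The counts without NS-I/R 3 were 4 and 3, beside 22.6% and 21.6% of all genes. Ccl2, the main attractant of CCR2-bearing monocytes, measured 3.19, 4.03 and 4.43 CPM in NS-Sham, 121, 77.9 and 67.6 CPM in NS-I/R and 43.6, 43.2 and 45.5 CPM in Enpa-I/R. For Ccl2 the change was -1.01 ± 0.19 on the log2 scale (adjusted p = 0.014), and the I/R groups did not overlap. The Ccl2 call was lost without Enpa-I/R 1 or Enpa-I/R 3 (adjusted p up to 0.063). Ccr1, a chemokine receptor of neutrophils and monocytes, measured 28.8, 20.9 and 30.1 CPM in NS-I/R and 9.87, 15.7 and 9.6 CPM in Enpa-I/R (log2 fold change -1.19 ± 0.23, adjusted p = 0.015). The Ccr1 call was lost without NS-I/R 1, Enpa-I/R 1 or Enpa-I/R 3 (adjusted p up to 0.069). Cxcl16 rose, with 4.48, 3.75 and 6.75 CPM in NS-I/R and 8.9, 9.83 and 6.99 CPM in Enpa-I/R (log2 fold change 0.78 ± 0.23, adjusted p = 0.042). The Cxcl16 call was lost when any 1 library other than NS-I/R 3 was left out (adjusted p up to 0.14) and without leukocyte barcodes (adjusted p = 0.071). Ccl6 (log2 fold change -0.24 ± 0.20, adjusted p = 0.41) and Cxcl12 (log2 fold change 0.31 ± 0.19, adjusted p = 0.26) did not pass the test. With 1 library left out, calls numbered 0 without Enpa-I/R 1 or Enpa-I/R 3 and 1 without NS-I/R 1.

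Itgam was lower with enpatoran in every library. Itgam (ENSMUSG00000030786) measured 6.27, 7.04 and 7.14 CPM in NS-Sham, 211, 170.5 and 137 CPM in NS-I/R and 48.2, 78.4 and 44.5 CPM in Enpa-I/R. The highest Enpa-I/R library, replicate 2, lay well under the lowest NS-I/R library, replicate 3. For Itgam the change was -1.60 ± 0.22 on the log2 scale (adjusted p = 0.0061). It was a lasting call with fold changes of -1.89 to -1.43, and -1.74 without NS-I/R 3. Without leukocyte barcodes the fold change was -2.59 (adjusted p = 0.0052) and among those barcodes alone -1.07 (adjusted p = 0.0096, where 8.99% of all genes tested were called). Itgb2, the beta chain that pairs with Itgam in Mac-1, measured 20.6, 17.6 and 21.8 CPM in NS-I/R and 11, 17 and 10.5 CPM in Enpa-I/R (log2 fold change -0.65 ± 0.21, adjusted p = 0.061), without overlap but short of the threshold. Itgal, the alpha chain of LFA-1, measured 10.2, 6.26 and 10.4 CPM in NS-I/R and 4.29, 5.92 and 3.87 CPM in Enpa-I/R (log2 fold change -0.93 ± 0.27, adjusted p = 0.043). The Itgal call was lost without NS-Sham 1, NS-Sham 2, NS-Sham 3, NS-I/R 1, Enpa-I/R 1, Enpa-I/R 2 or Enpa-I/R 3 (adjusted p up to 0.14). Of 8 integrin genes, 0 were called higher and 2 lower (median -0.55), beside 7.71% and 9.03% of all tested genes. Without leukocyte barcodes 5 of 7 tested were called lower (median -1.30), beside 10.2% of all genes. Among leukocyte barcodes alone 1 of 7 tested was called higher and 1 lower, and the median was positive (0.26). In either direction 8.99% of all genes were called there. Without NS-I/R 3, 3 were called lower, beside 21.6%, and the 6-library fit called 1 lower, beside 2.28%. Counts over left-out libraries were as low as 1 without NS-Sham 1, NS-Sham 2, NS-Sham 3, NS-I/R 1, Enpa-I/R 1 or Enpa-I/R 3. Of the 9 neutrophil markers, 6 were called lower and 0 higher, while of 8 macrophage markers 1, C1qa, was called higher and 0 lower. The defining neutrophil markers were present in all 6 libraries, S100a9 at 51.1, 39.5 and 108 CPM in NS-I/R and 22.3, 37.7 and 20.4 CPM in Enpa-I/R. Csf3r, the G-CSF receptor of neutrophils, was at 41.1, 33.4 and 209.6 and 44, 88.1 and 36.4 CPM, highest in NS-I/R 3. The part of neutrophil number in the Itgam difference was not tested, and the fits with and without leukocyte barcodes cannot separate it. The 7 tested endothelial adhesion genes held no call by edgeR (0 of 7, and 1 without NS-I/R 3 or without Enpa-I/R 1; 0 at an unadjusted p under 0.05 and 0 by DESeq2), with Icam1, which binds Mac-1, at 36.6, 28.4 and 32.2 CPM in NS-I/R and 35.3, 24 and 22.4 CPM in Enpa-I/R (log2 fold change -0.25 ± 0.20, adjusted p = 0.40).

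No interferon-stimulated gene was called lower. Of 29 tested, 2 were called higher and 0 lower, beside 7.71% and 9.03% of all tested genes, with a median log2 fold change of 0.44. The counts without NS-I/R 3 were 15 and 0 (median 0.67), beside 22.6% and 21.6% of all genes. The calls, Parp14 and Xaf1, were lost in every other fit that left out a library (0 called), and the 6-library fit called 0 as well. Xaf1, a proapoptotic interferon target, measured 20.3, 20.3 and 21.3 CPM in NS-Sham, 10.3, 7.57 and 11.8 CPM in NS-I/R and 14.7, 17.1 and 13.3 CPM in Enpa-I/R. For Xaf1 the change was 0.60 ± 0.17 on the log2 scale (adjusted p = 0.038), and the I/R groups did not overlap. Parp14, an ADP-ribosyltransferase, measured 27.7, 26.2 and 42.4 CPM in NS-I/R and 48.5, 55.1 and 42.2 CPM in Enpa-I/R (log2 fold change 0.60 ± 0.18, adjusted p = 0.047), where NS-I/R 3 reached the lowest Enpa-I/R value. Rnf213, a large ubiquitin ligase, measured 72.8, 58.5 and 87.1 CPM in NS-I/R and 102, 105 and 88.7 CPM in Enpa-I/R (log2 fold change 0.44 ± 0.14, adjusted p = 0.054) and did not pass the test, and nor did Stat2 (log2 fold change 0.16 ± 0.12, adjusted p = 0.37). The interferon response element (GAAA, any 2 bases, GAAA) occurred, on either strand, in 14 of 23 promoters of this list and in 3.80% of all tested genes with a promoter.

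Acute-phase genes and alarmins fell in part. Of 11 tested, 0 were called higher and 5 lower (median -1.31), beside 7.71% and 9.03% of all tested genes. Without NS-I/R 3 they were 0 and 8 (median -0.81), beside 22.6% and 21.6%. The 6-library fit gave 0 and 2, beside 1.58% and 2.28%. Lcn2, which withholds iron from bacteria, measured 0.755, 0.425 and 0.97 CPM in NS-Sham, 85.4, 70.7 and 45.6 CPM in NS-I/R and 28.6, 25.9 and 14.4 CPM in Enpa-I/R. For Lcn2 the change was -1.54 ± 0.29 on the log2 scale (adjusted p = 0.013), and the I/R groups did not overlap. The Lcn2 call was lost without NS-I/R 1 or Enpa-I/R 3 (adjusted p up to 0.052). Ptx3, a pentraxin, measured 32.3, 17.8 and 4.85 CPM in NS-I/R and 2.8, 3.28 and 3.62 CPM in Enpa-I/R (log2 fold change -2.50 ± 0.53, adjusted p = 0.018), with NS-I/R 3 near Enpa-I/R. The Ptx3 call was lost without NS-I/R 1, Enpa-I/R 1, Enpa-I/R 2 or Enpa-I/R 3 (adjusted p up to 0.078). Chil3 did not pass the test (38.2, 32.7 and 132 CPM in NS-I/R and 22, 38.4 and 12 CPM in Enpa-I/R; log2 fold change -1.49 ± 0.53, adjusted p = 0.077). Of this list, left-out fits called 0 without NS-I/R 1 or Enpa-I/R 3, 1 without Enpa-I/R 1 and 3 without NS-Sham 1, NS-Sham 2 or NS-Sham 3. Complement genes held 1 call higher and 0 lower of 15 (median -0.03), beside 7.71% and 9.03% of all tested genes. Without NS-I/R 3 they held 6 and 1, beside 22.6% and 21.6%, and in the 6-library fit 0 and 0. C1qa, a chain of the complement trigger C1q made by macrophages, measured 21.1, 18.6 and 18.6 CPM in NS-Sham, 12.5, 8.09 and 18 CPM in NS-I/R and 21.4, 33.2 and 20.9 CPM in Enpa-I/R. For C1qa the change was 0.96 ± 0.27 on the log2 scale (adjusted p = 0.038). The C1qa call was lost when any 1 library other than NS-I/R 3 was left out (adjusted p up to 0.12) and without leukocyte barcodes (adjusted p = 0.052).

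In a list of 18 inflammasome and cell death genes, 1 was called higher and 6 lower (median -0.33), and 11 did not pass the test. Of all tested genes 7.71% were called higher and 9.03% lower. The counts were 2 and 7 without NS-I/R 3, beside 22.6% and 21.6%. In the 6-library fit they were 0 and 1, beside 1.58% and 2.28%. Nlrp3, the inflammasome sensor, measured 2.32, 2.31 and 1.18 CPM in NS-Sham, 21.9, 14.6 and 11.4 CPM in NS-I/R and 3.84, 7.5 and 4.37 CPM in Enpa-I/R. For Nlrp3 the change was -1.61 ± 0.33 on the log2 scale (adjusted p = 0.016), without overlap, and -2.92 without leukocyte barcodes. Its call was lost without NS-I/R 1, Enpa-I/R 1 or Enpa-I/R 3 (adjusted p up to 0.072). Pycard, the adaptor ASC, measured 24.2, 23.3 and 10.9 CPM in NS-I/R and 6.65, 8.77 and 6.33 CPM in Enpa-I/R (log2 fold change -1.43 ± 0.29, adjusted p = 0.016). The Pycard call was lost without NS-I/R 1, NS-I/R 2, Enpa-I/R 1 or Enpa-I/R 3 (adjusted p up to 0.070). Casp8 (log2 fold change -0.58 ± 0.14, adjusted p = 0.027) and Acsl4, an enzyme that primes lipids for ferroptosis (log2 fold change -0.50 ± 0.12, adjusted p = 0.026), fell, and lost their calls without NS-I/R 1, NS-I/R 2, Enpa-I/R 1 or Enpa-I/R 3 (adjusted p up to 0.10), Acsl4 also without Enpa-I/R 2. Bcl2, a survival gene, rose, with 91.5, 84.1 and 119.8 CPM in NS-I/R and 138, 147 and 148 CPM in Enpa-I/R (log2 fold change 0.55 ± 0.13, adjusted p = 0.024). The Bcl2 call was lost when any 1 I/R library other than NS-I/R 3 was left out (adjusted p up to 0.094). Mcl1 (log2 fold change -0.12 ± 0.09, adjusted p = 0.38) and Bcl2l1 (log2 fold change -0.27 ± 0.16, adjusted p = 0.25), survival genes of the same family, did not pass the test. The list held 0 without NS-I/R 1, Enpa-I/R 1 or Enpa-I/R 3, 1 without NS-I/R 2 and 3 without Enpa-I/R 2.

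Of 25 ion channel and calcium-handling genes, 10 were called higher with enpatoran and 0 lower, beside 7.71% and 9.03% of all tested genes. The other 15 did not pass the test, and the median was 0.53. The counts without NS-I/R 3 were 13 and 2 (median 0.50), beside 22.6% and 21.6% of all genes. Of the 8 cardiomyocyte markers, whose sum is given above, 3 were called higher and 0 lower, and the part of cardiomyocyte number was not tested. Kcnip2 encodes KChIP2, the subunit that sets the transient outward current of the heart. It measured 91.5, 100.3 and 101 CPM in NS-Sham, 8.53, 8.09 and 10.5 CPM in NS-I/R and 25.5, 26.3 and 27.9 CPM in Enpa-I/R. Enpa-I/R lay between the other groups without overlap. For Kcnip2 the change was 1.55 ± 0.12 on the log2 scale (adjusted p = 0.00078). Kcnd2, which encodes the channel pore Kv4.2 that KChIP2 binds, measured 1842, 2072 and 2236 CPM in NS-Sham, 306, 410.0 and 346 CPM in NS-I/R and 796, 673 and 932 CPM in Enpa-I/R. The order was the same. For Kcnd2 the change was 1.18 ± 0.15 on the log2 scale (adjusted p = 0.0048). Both were lasting calls, with fold changes of 1.48 to 1.69 and 1.07 to 1.30 across left-out libraries. Cacna1c, the L-type calcium channel, measured 6994, 8399 and 7116 CPM in NS-Sham, 3609, 3872 and 5194 CPM in NS-I/R and 9454, 7257 and 8199 CPM in Enpa-I/R. Here Enpa-I/R and NS-Sham overlapped. For Cacna1c the change was 0.97 ± 0.17 on the log2 scale (adjusted p = 0.011). The Cacna1c call was lost without Enpa-I/R 1 (adjusted p = 0.053). Kcnj3, an inward rectifier, had 1.09 ± 0.19. The Kcnj3 call was lost without Enpa-I/R 1 or Enpa-I/R 3 (adjusted p up to 0.052). Ryr2, the calcium release channel, measured 7907, 8936 and 7589 CPM in NS-I/R and 11808, 9934 and 10518 CPM in Enpa-I/R (log2 fold change 0.40 ± 0.14, adjusted p = 0.077), without overlap but short of the threshold, and Atp2a2, the calcium pump SERCA2, did not pass the test (log2 fold change 0.35 ± 0.17, adjusted p = 0.16). The number of calls was 2 without Enpa-I/R 1, 3 without Enpa-I/R 3 and 6 without NS-I/R 2.

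Sarcomere genes rose in part, 6 of 19 being called higher and 1 lower (median 0.51), beside 7.71% and 9.03% of all tested genes. The counts without NS-I/R 3 were 8 and 2, beside 22.6% and 21.6% of all genes. Ttn, the giant spring protein titin, measured 15210.5, 15855 and 15782 CPM in NS-Sham, 5466, 5417 and 8033 CPM in NS-I/R and 14119, 11038 and 13351 CPM in Enpa-I/R. For Ttn the change was 1.03 ± 0.17 on the log2 scale (adjusted p = 0.010) and 1.25 without NS-I/R 3. The Ttn call was lost without Enpa-I/R 1 (adjusted p = 0.051). Mybpc3, myosin-binding protein C, measured 532, 603 and 713 CPM in NS-Sham, 110.1, 117 and 190.2 CPM in NS-I/R and 295, 288 and 329 CPM in Enpa-I/R. For Mybpc3 the change was 1.13 ± 0.20 on the log2 scale (adjusted p = 0.011). The Mybpc3 call was lost without Enpa-I/R 1 or Enpa-I/R 3 (adjusted p up to 0.052). Tnni3, cardiac troponin I, measured 249, 274 and 328 CPM in NS-I/R and 559, 505 and 476 CPM in Enpa-I/R (log2 fold change 0.86 ± 0.16, adjusted p = 0.013). The Tnni3 call was lost without NS-I/R 1 or Enpa-I/R 1 (adjusted p up to 0.060). In these 3 genes Enpa-I/R lay above NS-I/R in every library. Tpm1, a tropomyosin, fell, with 1034, 726 and 1311 CPM in NS-Sham, 2839, 3629 and 1243 CPM in NS-I/R and 1044, 1094 and 1063 CPM in Enpa-I/R. For Tpm1 the change was -1.27 ± 0.33 on the log2 scale (adjusted p = 0.032), and NS-I/R 3 was near Enpa-I/R. The Tpm1 call was lost without NS-Sham 1, NS-I/R 1, NS-I/R 2, Enpa-I/R 1, Enpa-I/R 2 or Enpa-I/R 3 (adjusted p up to 0.11). Myh6, the main myosin heavy chain of the adult mouse heart, overlapped between the I/R groups at 2419, 2686 and 2385 CPM in NS-I/R and 2208, 2841 and 2397 CPM in Enpa-I/R (log2 fold change -0.01 ± 0.13, adjusted p = 0.97), below 5548, 6005 and 6727 CPM in NS-Sham. Calls numbered 1 without Enpa-I/R 1, 3 without NS-I/R 1 or Enpa-I/R 3 and 4 without NS-Sham 1 or NS-I/R 2, and Myh7b was the lasting call of the list.

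**Figure D4:**
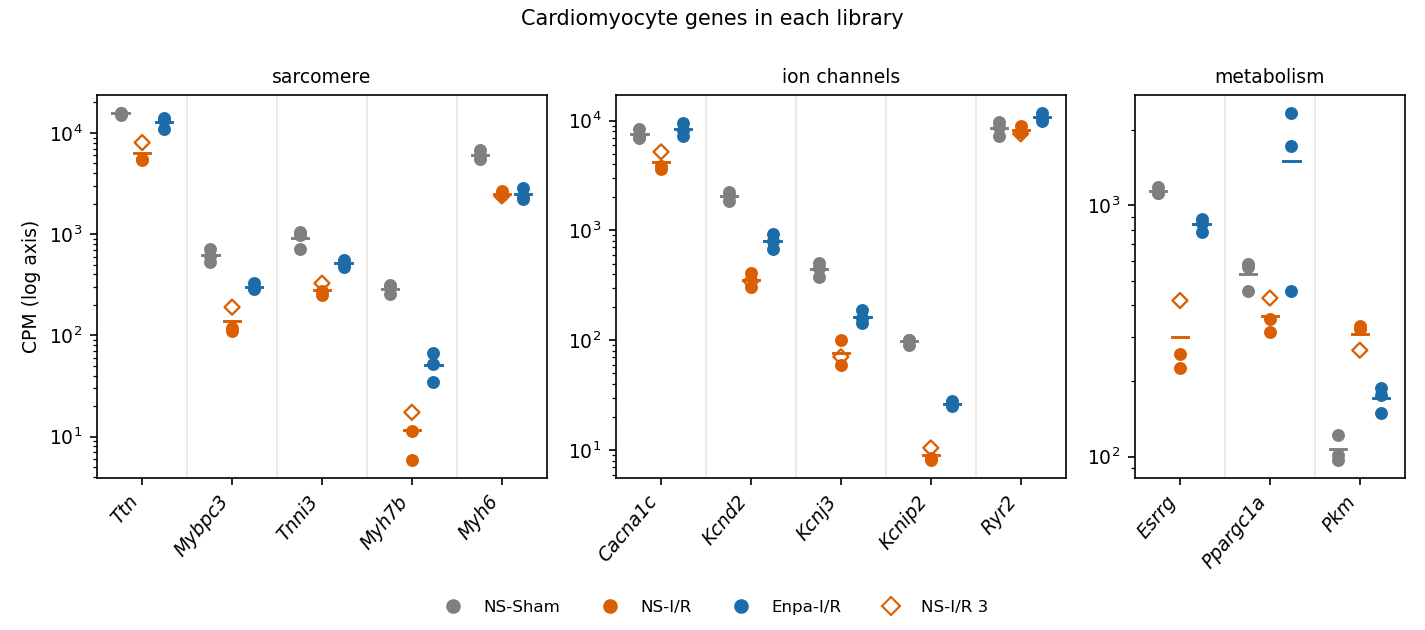
Each point is the CPM of 1 library on a log axis, by group, short lines are group means and the open diamond is NS-I/R 3. Kcnip2, Kcnd2, Myh7b and Esrrg in Enpa-I/R lie between NS-I/R and NS-Sham, Myh6 overlaps between the I/R groups, and Ppargc1a spreads from 457 to 2339 CPM within Enpa-I/R.

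Cardiomyocyte stress genes held 0 calls higher and 4 lower of 17 (median -0.51), beside 7.71% and 9.03% of all tested genes. The counts without NS-I/R 3 were 3 and 8, beside 22.6% and 21.6% of all genes. The 6-library fit called 0 higher and 2 lower, beside 1.58% and 2.28%. Flnc, the actin crosslinker filamin C of muscle, measured 92.2, 54.7 and 71.9 CPM in NS-Sham, 392, 503 and 444 CPM in NS-I/R and 179, 176 and 216 CPM in Enpa-I/R. For Flnc the change was -1.23 ± 0.18 on the log2 scale (adjusted p = 0.0079). Every Enpa-I/R library was below every NS-I/R library, NS-I/R 3 included, and it was a lasting call. Ankrd2 measured 16.6, 16.2 and 4.7 CPM in NS-I/R and 2.98, 3.59 and 1.91 CPM in Enpa-I/R (log2 fold change -2.14 ± 0.52, adjusted p = 0.026) and Xirp1, a Xin-repeat actin-binding protein, 72.1, 67.6 and 58.1 CPM in NS-I/R and 42.6, 33.8 and 40.9 CPM in Enpa-I/R (log2 fold change -0.75 ± 0.17, adjusted p = 0.021). Both, and Uchl1 (-0.96 ± 0.25), lost their calls without NS-I/R 1, NS-I/R 2 or any Enpa-I/R library (adjusted p up to 0.11), Uchl1 also without NS-Sham 1. Ankrd1 measured 2125, 2494 and 1274 CPM in NS-I/R and 1386, 871 and 1125 CPM in Enpa-I/R (log2 fold change -0.80 ± 0.29, adjusted p = 0.082) and Xirp2 1320.5, 1303 and 2776 CPM in NS-I/R and 925, 1102 and 1386 CPM in Enpa-I/R (log2 fold change -0.66 ± 0.29, adjusted p = 0.13), and neither passed the test. Single left-out libraries lowered the count to 1 without NS-I/R 1, NS-I/R 2, Enpa-I/R 1, Enpa-I/R 2 or Enpa-I/R 3.

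In a list of 31 genes of fatty acid use and its regulators, 3 were called higher and 2 lower, near the shares of all tested genes (7.71% and 9.03%), and 26 did not pass the test (median 0.12; 6 and 5 without NS-I/R 3). The calls that were higher were Esrrg, Ppargc1a and Ppargc1b, which encode transcriptional regulators. Esrrg, an estrogen-related receptor, measured 1118, 1179 and 1122 CPM in NS-Sham, 225, 256 and 418 CPM in NS-I/R and 886, 781 and 850.3 CPM in Enpa-I/R. Enpa-I/R lay in between without overlap. For Esrrg the change was 1.49 ± 0.20 on the log2 scale (adjusted p = 0.0055) and 1.81 without NS-I/R 3, and it was a lasting call. Ppargc1b had 0.79 ± 0.21. The Ppargc1b call was lost without NS-Sham 1, NS-Sham 2, NS-Sham 3, NS-I/R 1, NS-I/R 2, Enpa-I/R 1 or Enpa-I/R 3 (adjusted p up to 0.11). Angptl4, an inhibitor of lipoprotein lipase, fell, with 10.4, 5.37 and 6.03 CPM in NS-Sham, 88.1, 95.2 and 66.9 CPM in NS-I/R and 37.8, 17.2 and 15.2 CPM in Enpa-I/R. For Angptl4 the change was -1.83 ± 0.35 on the log2 scale (adjusted p = 0.013). The Angptl4 call was lost without Enpa-I/R 3 (adjusted p = 0.057). Pdk4, which shuts off pyruvate oxidation, was at 661, 802 and 155 CPM in NS-I/R and 202, 57.7 and 86.5 CPM in Enpa-I/R (log2 fold change -2.22 ± 0.58, adjusted p = 0.031). Its groups overlapped through NS-I/R 3 and Enpa-I/R 1. The Pdk4 call was lost without NS-Sham 3, NS-I/R 1, NS-I/R 2, Enpa-I/R 1, Enpa-I/R 2 or Enpa-I/R 3 (adjusted p up to 0.10). Cd36, the fatty acid carrier (log2 fold change -0.39 ± 0.20, adjusted p = 0.19), and Lpl (log2 fold change 0.16 ± 0.19, adjusted p = 0.57) did not pass the test. With 1 library left out, calls numbered 1 without Enpa-I/R 3, 2 without NS-I/R 1 or NS-I/R 2 and 3 without NS-Sham 3 or Enpa-I/R 1.

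Of 28 glycolysis and hypoxia genes, 2 were called higher and 5 lower (median -0.12), beside 7.71% and 9.03% of all tested genes. The counts without NS-I/R 3 were 5 and 5, beside 22.6% and 21.6% of all genes. Pkm, pyruvate kinase M, measured 96.7, 102 and 122 CPM in NS-Sham, 322, 331 and 265 CPM in NS-I/R and 187, 176 and 149.6 CPM in Enpa-I/R. Enpa-I/R lay between the other groups. For Pkm the change was -0.84 ± 0.13 on the log2 scale (adjusted p = 0.0091), and it was a lasting call. Pfkp, the platelet-type phosphofructokinase, measured 307, 233 and 161 CPM in NS-I/R and 135, 125 and 117 CPM in Enpa-I/R (log2 fold change -0.89 ± 0.19, adjusted p = 0.017). The Pfkp call was lost without NS-I/R 1, Enpa-I/R 1, Enpa-I/R 2 or Enpa-I/R 3 (adjusted p up to 0.073). Its muscle counterpart Pfkm rose, with 28.9, 34.7 and 46.6 CPM in NS-I/R and 65.5, 64.6 and 55.9 CPM in Enpa-I/R (log2 fold change 0.75 ± 0.18, adjusted p = 0.023). The Pfkm call was lost when any 1 I/R library other than NS-I/R 3 was left out (adjusted p up to 0.087). Ldhb, the lactate dehydrogenase chain of heart muscle, rose, with 153, 149.8 and 196 CPM in NS-Sham, 61.1, 69.6 and 78 CPM in NS-I/R and 106, 103 and 96.1 CPM in Enpa-I/R. For Ldhb the change was 0.55 ± 0.13 on the log2 scale (adjusted p = 0.024). The Ldhb call was lost when any 1 I/R library other than NS-I/R 3 was left out (adjusted p up to 0.094). Slc2a1, the glucose transporter GLUT1, fell (39, 20.8 and 32.2 CPM in NS-I/R and 13.6, 19.5 and 12.2 CPM in Enpa-I/R; log2 fold change -1.02 ± 0.23, adjusted p = 0.022). The Slc2a1 call was lost without NS-I/R 1, Enpa-I/R 1 or Enpa-I/R 3 (adjusted p up to 0.086). Hif1a (log2 fold change -0.17 ± 0.15, adjusted p = 0.45) and Hk2 (log2 fold change 0.48 ± 0.29, adjusted p = 0.26) did not pass the test. Counts over left-out libraries were as low as 1 without NS-I/R 1, Enpa-I/R 1 or Enpa-I/R 3 and 4 without NS-I/R 2.

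Beyond Hspa1a and Hspa1b, heat-shock chaperones fell in part: of 19 tested, 0 were called higher and 6 lower (median -0.27). Of all tested genes 7.71% were called higher and 9.03% lower. The counts were 0 and 8 without NS-I/R 3, beside 22.6% and 21.6%. In the 6-library fit they were 0 and 7, beside 1.58% and 2.28%. Hsp90aa1, the inducible HSP90, measured 54.8, 37.2 and 39.8 CPM in NS-Sham, 230.1, 132 and 124 CPM in NS-I/R and 66.6, 71.1 and 60.2 CPM in Enpa-I/R. For Hsp90aa1 the change was -1.30 ± 0.23 on the log2 scale (adjusted p = 0.012). Hspb1, a small heat-shock protein, measured 127, 131 and 118 CPM in NS-I/R and 60.5, 58.1 and 61.3 CPM in Enpa-I/R (log2 fold change -1.06 ± 0.18, adjusted p = 0.010). Neither overlapped between groups, and both calls were lost without Enpa-I/R 1 or Enpa-I/R 3 (adjusted p up to 0.057). Cryab (log2 fold change -0.27 ± 0.23, adjusted p = 0.42) and Bag3 (log2 fold change -0.24 ± 0.23, adjusted p = 0.48) did not pass the test. The heat shock element (GAA, any 2 bases, TTC, any 2 bases, GAA) occurred, on either strand, in 4 of 14 promoters of this list and in 0.614% of all tested genes with a promoter, and in neither Hspa1a nor Hspa1b in the window searched. Of this list, left-out fits called 2 without Enpa-I/R 1 or Enpa-I/R 3.

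Of 25 immediate-early genes, most of which encode transcription factors induced within minutes of a stimulus, 8 were called lower and 0 higher, and 17 did not pass the test (median -0.67). Of all tested genes 9.03% were called lower and 7.71% higher. The counts were 17 and 0 without NS-I/R 3 (median -0.81), beside 21.6% and 22.6% of all genes. In the 6-library fit they were 5 and 0, beside 2.28% and 1.58%. Fosl1, a partner of Jun, measured 0.116, 0.334 and 0.277 CPM in NS-Sham, 29.6, 25.7 and 17.3 CPM in NS-I/R and 6.2, 8.08 and 5.53 CPM in Enpa-I/R. For Fosl1 the change was -1.87 ± 0.24 on the log2 scale (adjusted p = 0.0048). Myc, a growth regulator, measured 2.84, 2.15 and 2.43 CPM in NS-Sham, 31.2, 27.3 and 22 CPM in NS-I/R and 10.8, 11.5 and 10.7 CPM in Enpa-I/R. For Myc the change was -1.28 ± 0.15 on the log2 scale (adjusted p = 0.0036). In both, Enpa-I/R lay below NS-I/R and above NS-Sham in every library, and both were lasting calls. Ier3 measured 85.3, 60.7 and 58.9 CPM in NS-I/R and 37.8, 32.7 and 25.2 CPM in Enpa-I/R (log2 fold change -1.10 ± 0.20, adjusted p = 0.012). The Ier3 call was lost without Enpa-I/R 3 (adjusted p = 0.056). Klf6, a zinc finger factor, had -0.70 ± 0.13. The Klf6 call was lost without NS-I/R 1, Enpa-I/R 1 or Enpa-I/R 3 (adjusted p up to 0.063). Fosl2 (log2 fold change -0.62 ± 0.31, adjusted p = 0.18) and Klf2 (log2 fold change 0.18 ± 0.19, adjusted p = 0.50) did not pass the test. The list held 2 without Enpa-I/R 3, 3 without NS-I/R 1 or Enpa-I/R 1 and 4 without Enpa-I/R 2.

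Of 19 oxidative stress and metallothionein genes, 6 were called lower and 0 higher, and 13 did not pass the test (median -0.53). Of all tested genes 9.03% were called lower and 7.71% higher. The counts were 12 and 0 without NS-I/R 3, beside 21.6% and 22.6%. In the 6-library fit they were 3 and 0, beside 2.28% and 1.58%. Gclm, a subunit of the glutathione-making ligase, measured 20.8, 19.3 and 21 CPM in NS-Sham, 94.7, 99.7 and 44 CPM in NS-I/R and 31.4, 29 and 25.7 CPM in Enpa-I/R. For Gclm the change was -1.47 ± 0.25 on the log2 scale (adjusted p = 0.011). Its partner Gclc measured 135, 156 and 68.6 CPM in NS-I/R and 52.3, 48.7 and 51.5 CPM in Enpa-I/R (log2 fold change -1.24 ± 0.24, adjusted p = 0.014). Txnrd1, thioredoxin reductase, measured 46.9, 41 and 38.9 CPM in NS-Sham, 316, 306 and 136 CPM in NS-I/R and 89.7, 83.1 and 90.0 CPM in Enpa-I/R. For Txnrd1 the change was -1.53 ± 0.26 on the log2 scale (adjusted p = 0.010). In each, NS-I/R 3 lay well under NS-I/R 1 and 2 yet above Enpa-I/R. The call of Gclm was lost without Enpa-I/R 3 (adjusted p = 0.054), that of Txnrd1 without Enpa-I/R 1 or Enpa-I/R 3 (adjusted p up to 0.052) and that of Gclc without NS-I/R 1, Enpa-I/R 1 or Enpa-I/R 3 (adjusted p up to 0.061). Slc7a11, the cystine carrier, had -1.29 ± 0.26. The Slc7a11 call was lost without Enpa-I/R 1 or Enpa-I/R 3 (adjusted p up to 0.071). Mt1 (log2 fold change -0.58 ± 0.26, adjusted p = 0.15) and Nfe2l2, which encodes NRF2 (log2 fold change -0.38 ± 0.27, adjusted p = 0.34), did not pass the test. The number of calls was 0 without Enpa-I/R 3, 1 without Enpa-I/R 1 and 3 without NS-I/R 1.

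Genes of the unfolded protein and amino acid stress responses were called in both directions. Of 25 genes, 2 were called higher and 5 lower (median 0.09), beside 7.71% and 9.03% of all tested genes. The counts without NS-I/R 3 were 9 and 6, beside 22.6% and 21.6% of all genes. Atf4, the master factor of the amino acid response, measured 20.4, 20.8 and 22.7 CPM in NS-Sham, 69.8, 73 and 54.8 CPM in NS-I/R and 37.6, 36.7 and 41.3 CPM in Enpa-I/R. For Atf4 the change was -0.77 ± 0.12 on the log2 scale (adjusted p = 0.0091), and it was a lasting call. Psat1 (-0.89 ± 0.20), a serine synthesis enzyme under ATF4, and Sesn2 (-0.99 ± 0.21), a stress-induced sestrin, also fell. Both calls were lost without NS-I/R 1, Enpa-I/R 1 or Enpa-I/R 3, and that of Psat1 also without NS-I/R 2 or Enpa-I/R 2 (adjusted p up to 0.087), and Sesn2 lost it without leukocyte barcodes (adjusted p = 0.071). Xbp1, a factor of the unfolded protein response, measured 66, 62.4 and 62.9 CPM in NS-I/R and 47.7, 46.1 and 52.4 CPM in Enpa-I/R (log2 fold change -0.39 ± 0.09, adjusted p = 0.023). The Xbp1 call was lost when any 1 I/R library other than NS-I/R 3 was left out (adjusted p up to 0.093) and without leukocyte barcodes (adjusted p = 0.30). Calr, the chaperone calreticulin, rose, with 36.8, 32.5 and 79.5 CPM in NS-I/R and 96.8, 104 and 87.7 CPM in Enpa-I/R (log2 fold change 0.95 ± 0.28, adjusted p = 0.044). The Calr call was lost when any 1 library other than NS-I/R 3 was left out (adjusted p up to 0.15). Hspa5, the chaperone BiP, did not pass the test (192, 143 and 183 CPM in NS-I/R and 155, 195 and 162 CPM in Enpa-I/R; log2 fold change -0.02 ± 0.14, adjusted p = 0.94). Single left-out libraries lowered the count to 1 without NS-I/R 1, Enpa-I/R 1 or Enpa-I/R 3, 2 without NS-I/R 2 and 3 without Enpa-I/R 2.

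Of 22 tested genes for matrix proteases and their inhibitors, 0 were called higher and 9 lower with enpatoran (median -0.66). The other 13 did not pass the test, and of all tested genes 7.71% were called higher and 9.03% lower. The counts were 2 and 13 without NS-I/R 3, beside 22.6% and 21.6%. Without leukocyte barcodes they were 0 and 11 of 20 tested, beside 7.51% and 10.2%. In the 6-library fit they were 0 and 7 of 21 tested, beside 1.58% and 2.28%. Plaur, the urokinase receptor, measured 4.53, 3.52 and 4.02 CPM in NS-Sham, 119, 86.2 and 54.6 CPM in NS-I/R and 24.7, 29.3 and 27.3 CPM in Enpa-I/R. For Plaur the change was -1.68 ± 0.24 on the log2 scale (adjusted p = 0.0069). Adam8, a membrane protease of leukocytes, measured 1.51, 1.64 and 1.66 CPM in NS-Sham, 66.2, 43.8 and 47.7 CPM in NS-I/R and 19, 23.6 and 21.1 CPM in Enpa-I/R. For Adam8 the change was -1.31 ± 0.16 on the log2 scale (adjusted p = 0.0036). Both were without overlap and lasting calls. Adamts4, an aggrecanase, had -1.62 ± 0.27. The Adamts4 call was lost without Enpa-I/R 1 or Enpa-I/R 3 (adjusted p up to 0.052). Adamts9 (log2 fold change -0.21 ± 0.15, adjusted p = 0.33) and Timp3 (log2 fold change -0.54 ± 0.26, adjusted p = 0.17) did not pass the test. With 1 library left out, calls numbered 3 without Enpa-I/R 1 or Enpa-I/R 3.

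Among 21 matricellular and scar genes, 0 were called higher and 7 lower (median -0.13), beside 7.71% and 9.03% of all tested genes. The counts were 4 and 8 without NS-I/R 3, beside 22.6% and 21.6%. In the 6-library fit they were 0 and 6, beside 1.58% and 2.28%. Tnc, tenascin C, which appears at wound edges, measured 2.32, 2.91 and 2.49 CPM in NS-Sham, 373, 262 and 211 CPM in NS-I/R and 85.2, 118 and 134 CPM in Enpa-I/R. For Tnc the change was -1.33 ± 0.21 on the log2 scale (adjusted p = 0.0095). Ccn1, a YAP-responsive matricellular gene, measured 35.4, 32.2 and 44.6 CPM in NS-Sham, 159, 160.1 and 93.2 CPM in NS-I/R and 53, 41.9 and 45.3 CPM in Enpa-I/R. Here Enpa-I/R came near NS-Sham and NS-I/R 3 lay between the other NS-I/R libraries and Enpa-I/R. For Ccn1 the change was -1.55 ± 0.21 on the log2 scale (adjusted p = 0.0057). Both were lasting calls. Ccn2, connective tissue growth factor (log2 fold change -0.63 ± 0.12, adjusted p = 0.015), and Runx1, a transcription factor (log2 fold change -0.88 ± 0.17, adjusted p = 0.015, -1.53 without leukocyte barcodes), fell and lost their calls without NS-I/R 1, Enpa-I/R 1 or Enpa-I/R 3 (adjusted p up to 0.067). Fn1, fibronectin (144, 120.3 and 175 CPM in NS-I/R and 105, 137 and 91.4 CPM in Enpa-I/R; log2 fold change -0.40 ± 0.17, adjusted p = 0.13), and Sparc (log2 fold change 0.40 ± 0.20, adjusted p = 0.18) did not pass the test. Counts over left-out libraries were as low as 2 without Enpa-I/R 1 or Enpa-I/R 3 and 3 without NS-I/R 1.

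Collagens were called in both directions. Of 16, 3 were called higher and 3 lower (median 0.71), beside 7.71% and 9.03% of all tested genes. The counts without NS-I/R 3 were 12 and 3 (median 1.21), beside 22.6% and 21.6% of all genes. Col14a1, a fibril-associated collagen, measured 26, 22 and 25 CPM in NS-Sham, 5.57, 5.62 and 10.8 CPM in NS-I/R and 15.9, 22.6 and 20.3 CPM in Enpa-I/R. For Col14a1 the change was 1.41 ± 0.25 on the log2 scale (adjusted p = 0.012). The Col14a1 call was lost without Enpa-I/R 3 (adjusted p = 0.052). Col4a1 and Col4a2, the basement membrane pair, fell, with 938, 817 and 601 CPM in NS-I/R and 496, 458 and 551 CPM in Enpa-I/R for Col4a1 (log2 fold change -0.65 ± 0.16, adjusted p = 0.029) and -0.73 ± 0.20 for Col4a2; both lost their calls without NS-I/R 1, NS-I/R 2 or any Enpa-I/R library, and Col4a2 also without NS-Sham 1 or NS-Sham 3 (adjusted p up to 0.13). Col15a1, a collagen found along basement membranes, rose, with 115, 101 and 100.1 CPM in NS-Sham, 31.9, 22.9 and 71.2 CPM in NS-I/R and 76, 88.4 and 108 CPM in Enpa-I/R. For Col15a1 the change was 1.11 ± 0.34 on the log2 scale (adjusted p = 0.048). The Col15a1 call was lost when any 1 library other than NS-I/R 3 was left out (adjusted p up to 0.16). Col3a1, a fibril-forming collagen, depended on NS-I/R 3. It measured 51.1, 50.9 and 189 CPM in NS-I/R and 172, 203 and 137 CPM in Enpa-I/R (log2 fold change 0.82 ± 0.44, adjusted p = 0.21), and 1.75 without NS-I/R 3 (adjusted p = 5.8e-05). The library NS-I/R 3 was within the Enpa-I/R range while NS-I/R 1 and 2 were far below. Of this list, left-out fits called 0 without Enpa-I/R 3, 1 without NS-I/R 1, NS-I/R 2, Enpa-I/R 1 or Enpa-I/R 2, 2 without NS-Sham 1 or NS-Sham 3 and 3 without NS-Sham 2.

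In the TGF-beta axis 1 of 21 genes was called higher and 3 lower (median 0.00), beside 7.71% and 9.03% of all tested genes. The counts without NS-I/R 3 were 6 and 4, beside 22.6% and 21.6% of all genes. Inhbb, an activin subunit, measured 17.5, 14.8 and 12 CPM in NS-I/R and 5.85, 6.5 and 4.77 CPM in Enpa-I/R (log2 fold change -1.37 ± 0.32, adjusted p = 0.022). The Inhbb call was lost when any 1 I/R library other than NS-I/R 3 was left out (adjusted p up to 0.084). Tgfb2, a ligand, measured 282, 265 and 95.5 CPM in NS-I/R and 85.4, 81.3 and 98.8 CPM in Enpa-I/R (log2 fold change -1.27 ± 0.31, adjusted p = 0.027), with NS-I/R 3 inside the Enpa-I/R range. The Tgfb2 call was lost when any 1 I/R library other than NS-I/R 3 was left out (adjusted p up to 0.099). Smad3, the transducer, rose (0.40 ± 0.11). The Smad3 call was lost when any 1 library other than NS-I/R 3 was left out (adjusted p up to 0.15) and without leukocyte barcodes (adjusted p = 0.071). Eng (log2 fold change 0.18 ± 0.13, adjusted p = 0.35) and Tgfbr3 (log2 fold change 0.06 ± 0.11, adjusted p = 0.73) did not pass the test. The list held 0 without NS-I/R 1, Enpa-I/R 1, Enpa-I/R 2 or Enpa-I/R 3, 1 without NS-I/R 2 and 2 without NS-Sham 1, NS-Sham 2 or NS-Sham 3. In the VEGF and angiopoietin axis, 2 of 17 were called higher and 1 lower (median 0.13), beside the same shares of all tested genes. The counts without NS-I/R 3 were 5 and 1. Pgf, placental growth factor, measured 11.5, 16.6 and 11.2 CPM in NS-Sham, 70.8, 59.2 and 53.5 CPM in NS-I/R and 24, 24.5 and 23.3 CPM in Enpa-I/R. Enpa-I/R values were tight. For Pgf the change was -1.35 ± 0.16 on the log2 scale (adjusted p = 0.0036), and it was a lasting call. Angpt1, which steadies vessels, rose, with 278, 231 and 237 CPM in NS-Sham, 39.7, 66.2 and 77.1 CPM in NS-I/R and 113, 107 and 169 CPM in Enpa-I/R. For Angpt1 the change was 1.08 ± 0.24 on the log2 scale (adjusted p = 0.020). The Angpt1 call was lost without NS-I/R 1, NS-I/R 2, Enpa-I/R 1 or Enpa-I/R 3 (adjusted p up to 0.074). Vegfa did not pass the test (229, 170.1 and 445 CPM in NS-I/R and 540.5, 379 and 528 CPM in Enpa-I/R; log2 fold change 0.78 ± 0.29, adjusted p = 0.089), though without NS-I/R 3 it was called (1.28, adjusted p = 0.00026). The number of calls was 1 without NS-I/R 1, NS-I/R 2, Enpa-I/R 1 or Enpa-I/R 3.

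Lists of macrophage state, uptake of dead cells, the clock and cell division come last. Their counts stand beside 7.71% of all tested genes called higher and 9.03% lower. The shares of all genes without NS-I/R 3 were 22.6% and 21.6%. Of 14 resident and repair macrophage genes, 1 was called higher and 1 lower (median -0.11; 4 and 2 without NS-I/R 3). Arg1, arginase of repair macrophages, measured 68.2, 47.5 and 87.2 CPM in NS-I/R and 28.2, 50.8 and 30.9 CPM in Enpa-I/R (log2 fold change -0.89 ± 0.27, adjusted p = 0.046), with overlap; of the called genes named here it alone lost its call without NS-I/R 3 (adjusted p = 0.051), and the call was also lost without NS-I/R 1, Enpa-I/R 1, Enpa-I/R 3 or any NS-Sham library. Folr2, a marker of resident macrophages, rose, with 1.87, 1.69 and 3.14 CPM in NS-I/R and 3.63, 4.91 and 4.12 CPM in Enpa-I/R (log2 fold change 0.91 ± 0.27, adjusted p = 0.047). The Folr2 call was lost when any 1 library other than NS-I/R 3 was left out (adjusted p up to 0.15) and without leukocyte barcodes (adjusted p = 0.14). Mrc1 did not pass the test (log2 fold change -0.22 ± 0.15, adjusted p = 0.34). Single left-out libraries lowered the count to 0 without NS-Sham 1, NS-Sham 2, NS-Sham 3, NS-I/R 1, Enpa-I/R 1 or Enpa-I/R 3 and 1 without NS-I/R 2 or Enpa-I/R 2. Of 14 genes for uptake of dead cells, 0 were called higher and 1, Itgav, lower (log2 fold change -0.51 ± 0.12, adjusted p = 0.024; 1 and 2 without NS-I/R 3), and the number of calls was 0 without NS-I/R 1, NS-I/R 2, Enpa-I/R 1 or Enpa-I/R 3. Of 19 clock genes, 1 was called higher and 3 lower (2 and 9 without NS-I/R 3). The clock repressor Cry1 measured 11.2, 18.2 and 11.8 CPM in NS-Sham, 76.9, 76.9 and 21.5 CPM in NS-I/R and 20.9, 22.2 and 22 CPM in Enpa-I/R. For Cry1 the change was -1.43 ± 0.40 on the log2 scale (adjusted p = 0.037), and NS-I/R 3 lay within the Enpa-I/R range. The Cry1 call was lost without NS-Sham 1, NS-Sham 3, NS-I/R 1, NS-I/R 2, Enpa-I/R 1, Enpa-I/R 2 or Enpa-I/R 3 (adjusted p up to 0.13). Bhlhe40, a clock-linked repressor that many stimuli induce, measured 63.1, 46.4 and 44.4 CPM in NS-I/R and 36.4, 33.3 and 31.1 CPM in Enpa-I/R (log2 fold change -0.61 ± 0.16, adjusted p = 0.033). The Bhlhe40 call was lost without NS-Sham 2, NS-I/R 1, NS-I/R 2, Enpa-I/R 1, Enpa-I/R 2 or Enpa-I/R 3 (adjusted p up to 0.12). The time of day at which hearts were taken is not given in the sources used here. With 1 library left out, calls numbered 0 without NS-I/R 1, NS-I/R 2, Enpa-I/R 1, Enpa-I/R 2 or Enpa-I/R 3 and 2 without NS-Sham 1, NS-Sham 2 or NS-Sham 3. Of 28 cell division genes, 0 were called higher and 3 lower (median -0.47; 1 and 11 without NS-I/R 3), at levels near 1 CPM, as in Rrm2 with 0.958, 0.937 and 0.815 CPM in NS-I/R and 0.173, 0.37 and 0.201 CPM in Enpa-I/R (log2 fold change -1.89 ± 0.38, adjusted p = 0.015). Counts over left-out libraries were as low as 0 without NS-I/R 1, Enpa-I/R 1 or Enpa-I/R 3 and 1 without NS-Sham 1, NS-I/R 2 or Enpa-I/R 2.

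**Figure D5:**
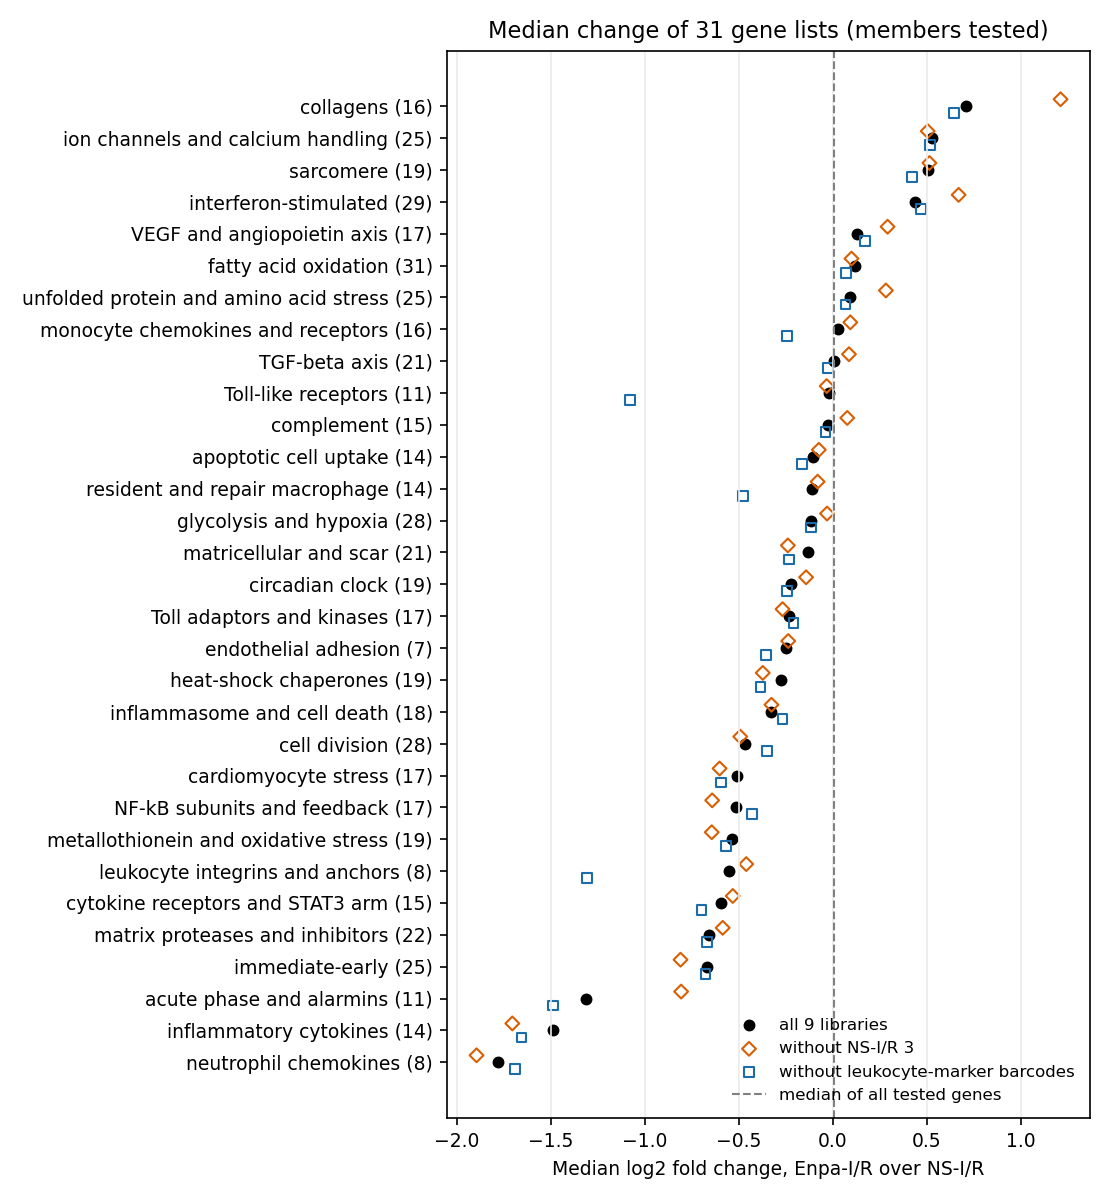
Each row is a gene list with its number of tested members, and points are the median log2 fold change of Enpa-I/R over NS-I/R with all 9 libraries, without NS-I/R 3 and without leukocyte barcodes. Neutrophil chemokines (-1.78) and inflammatory cytokines (-1.49) lie lowest under all 3, collagens (0.71) and ion channels (0.53) are highest with all libraries, and the dashed line is the median of all tested genes (0.01).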

How the data were processed

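The authors deposited, for each library, a 10x matrix of raw UMI counts per gene and barcode. Submitters' processing notes name Cell Ranger 6.1.1, Seurat, GRCm39 and GRCh38, with no roles given, while the matrices carry a Cell Ranger 8.0.0 mark per the file headers. The aligner settings and the treatment of intronic reads are not given in the sources used here. From these counts, barcodes with at least 500 genes and at most 5% mitochondrial UMIs were kept (44430 of 56766 in the 9 libraries), doublets were not removed, and UMIs were summed per library. Libraries shared at most 20 barcodes in any pair.

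Sums of the 9 libraries went into 1 edgeR 4.0.16 fit. Genes were filtered with filterByExpr, library sizes scaled by TMM, the test was the quasi-likelihood F test, and the threshold was a Benjamini-Hochberg adjusted p of 0.05, for the contrast Enpa-I/R minus NS-I/R. The step was tested on simulated data. Standard errors were derived from the F statistic. Marker sums are CPM of all kept UMIs and were compared by exact permutation tests. Where a symbol had several gene IDs (Aldoa, Ddit3), the ID with the highest mean was used.

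Named genes were Tlr7, Itgam and Itgb2; per direction the 8 largest called changes of genes averaging 10 CPM or more without overlap, without unnamed gene models; and per list up to 4 called genes a direction with the smallest p and up to 2 uncalled with the highest CPM. Some genes that the rule chose are not reported here. Csf3r was named as a marker after its values were seen. The comparison, its members, lists and alternatives were chosen with earlier results of these data known. Of 570 distinct list members, Mx1 and Mx2 were not matched, and Tlr9, Tlr11, Tlr12, Cxcr1, Madcam1, Orm1 and Esm1 did not pass the filter on low counts. Promoters were matched by symbol to RefSeq tables (GRCm38.p6), which held 13200 of the 18260 tested genes. Alternatives covered DESeq2 1.42.0, normalization, filters, left-out libraries, a replicate block, and sums with and without leukocyte barcodes.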

Additional observations from a re-analysis of the deposited data

How the results depend on the processing

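Among the named genes that passed the test with all libraries, the direction held under each alternative tried except for Traf3, whose log2 fold change was 0.0224 among leukocyte barcodes alone. Genes that did not pass could turn, as Tlr7 did (0.03 with all libraries, -0.17 to 0.15 with single libraries left out, -1.11 without leukocyte barcodes). Leaving out each of the 9 libraries gave 265 to 8247 called genes, 125 to 4217 higher and 140 to 4030 lower. The 6 I/R libraries alone gave 689 (282 higher, 407 lower), and the 5 I/R libraries without NS-I/R 3 gave 7857 (3833 and 4024). List counts of the 6-library fit not given above follow as higher and lower, beside 1.58% and 2.28% of all genes. Ion channels held 6 and 0, sarcomere genes 5 and 0, collagens 1 and 0. Fatty acid genes held 1 and 1, glycolysis 1 and 2, monocyte traffic 0 and 2. Toll-like receptors, unfolded protein genes, the TGF-beta and VEGF axes and cell division held 0 and 1 each. Macrophage state, dead cell uptake, clock and endothelial adhesion held 0 and 0. Leukocyte barcodes alone gave 1237 (582 and 655); this alternative and the fit of 5 I/R libraries were chosen after seeing the data. The causes of these shifts were not tested. DESeq2's Wald test called 4285 genes, edgeR with DESeq2 size factors 3128, no filter on low counts 2891, a limit of 20% mitochondrial UMIs 2698, at least 1000 genes per barcode 2711 and the sums without the deepest 5% of barcodes 2897. The naming rule chose 186 genes, among them genes not called with all libraries, which had no call to lose. The losses given here therefore fall on fewer than 186 genes. With the 6 I/R libraries alone, 60 genes lost their call. Without Enpa-I/R 1, 2 or 3, 91, 45 and 93 lost it, without NS-I/R 1 or 2, 75 and 52, and without NS-Sham 1, 2 or 3, 27, 21 and 25. Without NS-I/R 3, 1 lost its call and 22 gained one. The log2 ratio of the macrophage marker sum, -0.13 with all libraries, ran from -0.48 to 0.0158 with single libraries left out, 0.0157 without Enpa-I/R 1 and 0.0158 without Enpa-I/R 3.

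Same-numbered libraries of NS-I/R and Enpa-I/R did not deviate together (correlations across genes of -0.05, -0.16 and -0.14). Deviations from means of 3 libraries are tied to each other, so these values cannot settle whether the numbers pair the libraries. A fit with the replicate number as a block called 2340 genes, 1200 higher and 1140 lower, and not every library correlated best with its own number.

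With 3 libraries a group, permutation tests cannot go below p = 0.1, and genes near 1 CPM rest on few UMIs. Nuclear RNA does not show protein levels or drug action.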

Other observations

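Markers of further cell types gave values that belong to none of the lists above. Dendritic cell markers (5 genes) summed to 91.5, 71.3 and 122 CPM in NS-I/R and 127, 143 and 132 CPM in Enpa-I/R, without overlap. Nearly all of that sum was Zbtb46, a transcription factor gene, which was called higher by edgeR, and the other 4 markers stayed under 3 CPM in each of these libraries. B cell markers (6 genes) summed to 16.2, 16.6 and 21.5 CPM and 17.2, 39.9 and 28.6 CPM. The largest part of that sum was Bank1, the only one of the 6 called, and higher. Pericyte markers (7 genes) overlapped in sum, at 567, 449.8 and 649 CPM and 558, 626 and 687 CPM, while Notch3 and Cspg4 were called higher. Adipocyte markers (5 genes) summed to 303, 441 and 171 CPM in NS-I/R and 207, 147 and 181 CPM in Enpa-I/R, with overlap, mostly from Plin4 and Lipe, while Adipoq, the defining marker, stayed under 1 CPM. Endothelial markers overlapped too, at 1491, 1194 and 1614 CPM and 1319, 1599.6 and 1326 CPM, and Cdh5, the junction cadherin of endothelium, was called lower.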
